A study of Mus musculus with 5 samples.

Results

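Oxidative phosphorylation genes were examined in RAW264.7, a monocyte/macrophage cell line of the mouse. They were chosen by symbol (all genes beginning Nduf, Uqcr, Cox4 to Cox8 or Atp5, with Sdha, Sdhb, Sdhc, Sdhd, Cyc1 and Cycs), and 91 of the 16003 genes with an expression value met that rule. A further 3, Cox7b2, Cox8b and Cox8c, were listed without a value. The control cells carried Renilla luciferase alone. The CD137 cells carried Renilla luciferase and mouse Cd137, the co-stimulatory TNF receptor family member whose gene symbol is Tnfrsf9. The labels give no promoter, vector, clone, treatment or time for either group. Of 2 control and 3 CD137 samples in the series, the values analysed here came from control replicate 2 and CD137 replicates 2 and 3; the other two were not analysed here.

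In oxidative phosphorylation, electrons from NADH and succinate enter the inner mitochondrial membrane at complex I and complex II and pass through complex III and cytochrome c to complex IV, where oxygen is reduced. Complexes I, III and IV pump protons, and complex V, the ATP synthase, uses the gradient to make ATP. Complex II is encoded wholly in the nucleus, whereas complexes I, III, IV and V join nuclear subunits to a few made from mitochondrial DNA, and separate assembly factors help to build them. In macrophages the balance of this system and glycolysis is known to shift with activation state. The mitochondrially encoded subunits were not analysed here, so all values concern nuclear genes.

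Levels are in FPKM (fragments per kilobase of transcript and per library depth). Reads could be solved uniquely for 80.5% of genes with a value. Over those genes they summed to 11327744, 11102026 and 11157113 for the control and CD137 replicates 2 and 3, which is not the full library depth. Tnfrsf9 was at 5.06 FPKM in the control and at 364.30 and 369.95 FPKM in the CD137 libraries, 72.6-fold higher. Of 10 macrophage markers all had a value, although Mertk was at or near 0 in every library. Their summed level was 3122.30 FPKM in the control and 1964.16 and 2012.05 FPKM in the CD137 libraries, a difference carried mostly by Lyz2, a lysozyme, at 1692.90, 646.25 and 669.34 FPKM. Of the 9 macrophage markers tested in the limma fit, 4 fell and 4 rose, among them Fcgr1, an Fc receptor, from 45.21 to 89.91 and 95.16 FPKM, with a median log2 change of 0.11. T cell markers and B cell markers each summed to 0.92 FPKM or less in each library, and fibroblast or osteoblast markers to between 3.02 and 4.12 FPKM. The 4 epithelial markers summed to 6.28 FPKM in CD137 replicate 2, against 0.67 in the control and 1.17 in CD137 replicate 3, mostly through Krt8 and Krt18. The part of these markers in the results was not tested.

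The comparison asks how expression differs when Cd137 is introduced. The test was limma on log2(FPKM + 1), with its prior variance following the mean level, over the 10720 genes at 1 FPKM or more in some library, and fold changes in log2 are on that scale. Adjusted p-values are Benjamini-Hochberg values over those genes, with a threshold of 0.05. The control is 1 library, so the spread comes only from the 2 CD137 libraries and leaves 1 residual degree of freedom. Nothing in the labels says that the libraries came from separate cultures, and p-values then measure only a spread that may be technical; how far control cultures differ among themselves was not measured. The same fit over all 16003 genes called 0 genes, with a smallest adjusted p of 0.0802, while 5281 genes and 34 of the 91 oxidative phosphorylation genes had an unadjusted p under 0.05 there. The filtered fit was taken as the main one with that result known.

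The summed level of oxidative phosphorylation transcripts was slightly below that of the control, and single genes went in both directions. Their FPKM summed to 12491 in the control and to 11881 and 11874 in CD137 replicates 2 and 3, a ratio of 0.951. Of the 91 genes, 89 reached the 1 FPKM minimum; 24 of these (27%) fell and 12 (13.5%) rose, and 53 did not pass the test. Over all 10720 genes tested, 42.6% passed, 18.2% lower and 24.4% higher, so the share of oxidative phosphorylation genes that passed in either direction, 40.4%, was near that of all genes. The median log2 change was -0.04, against 0.03 for all genes. Of the genes, 75 were at 50 FPKM or more in the control, and 24 of these (32%) fell and 10 (13.3%) rose, while among all 1672 genes at that level 34.4% fell and 25.4% rose. Both CD137 libraries lay below the control for 45 genes and above it for 27, and the control lay between or level with them for 17; over all genes 40.2% lay below and 49% above. In bulk RNA, fewer cells of a type and less RNA per cell cannot be told apart.

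The balance of lower and higher genes moved with the scaling. When the libraries were rescaled by TMM, 33 of the genes were lower and 10 higher, beside 23.4% and 23.5% of all genes (46.9% in either direction). TMM added Ndufv1, Sdhb, Sdhd, Uqcrfs1, Uqcrc1, Cox6c, Cox6a1, Cox4i2 and Atp5e to the lower genes, with log2 values from -0.58 to -0.13, and ended the rise of Ndufb5 and Atp5g2. With the libraries set to one median ratio, 27 were lower and 10 higher (20.5% and 21.5% of all genes, 42.1% in either direction). At a minimum of 5 FPKM, 24 were lower and 13 higher of 88 tested, beside 22.2% and 27.6% of all genes (49.8% in either direction). On recovered reads, a fit with limma-voom chosen after seeing the data covered only 83 of the genes. It gave 29 lower and 11 higher, beside 25.5% and 24.1% of all genes with such reads (49.7% in either direction). Without a mean-variance trend, 14 were lower and 6 higher (15.2% and 20.3%, 35.5% in either direction), and the 16 genes that no longer passed included Cox7a2, at -0.35 the largest of them. All 36 genes that passed in the main fit kept their direction under each rescaling, and so did the 31 of them with recovered reads. The fit without the trend uses the same fold changes as the main fit, so direction could not differ there.

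**Figure D1:**
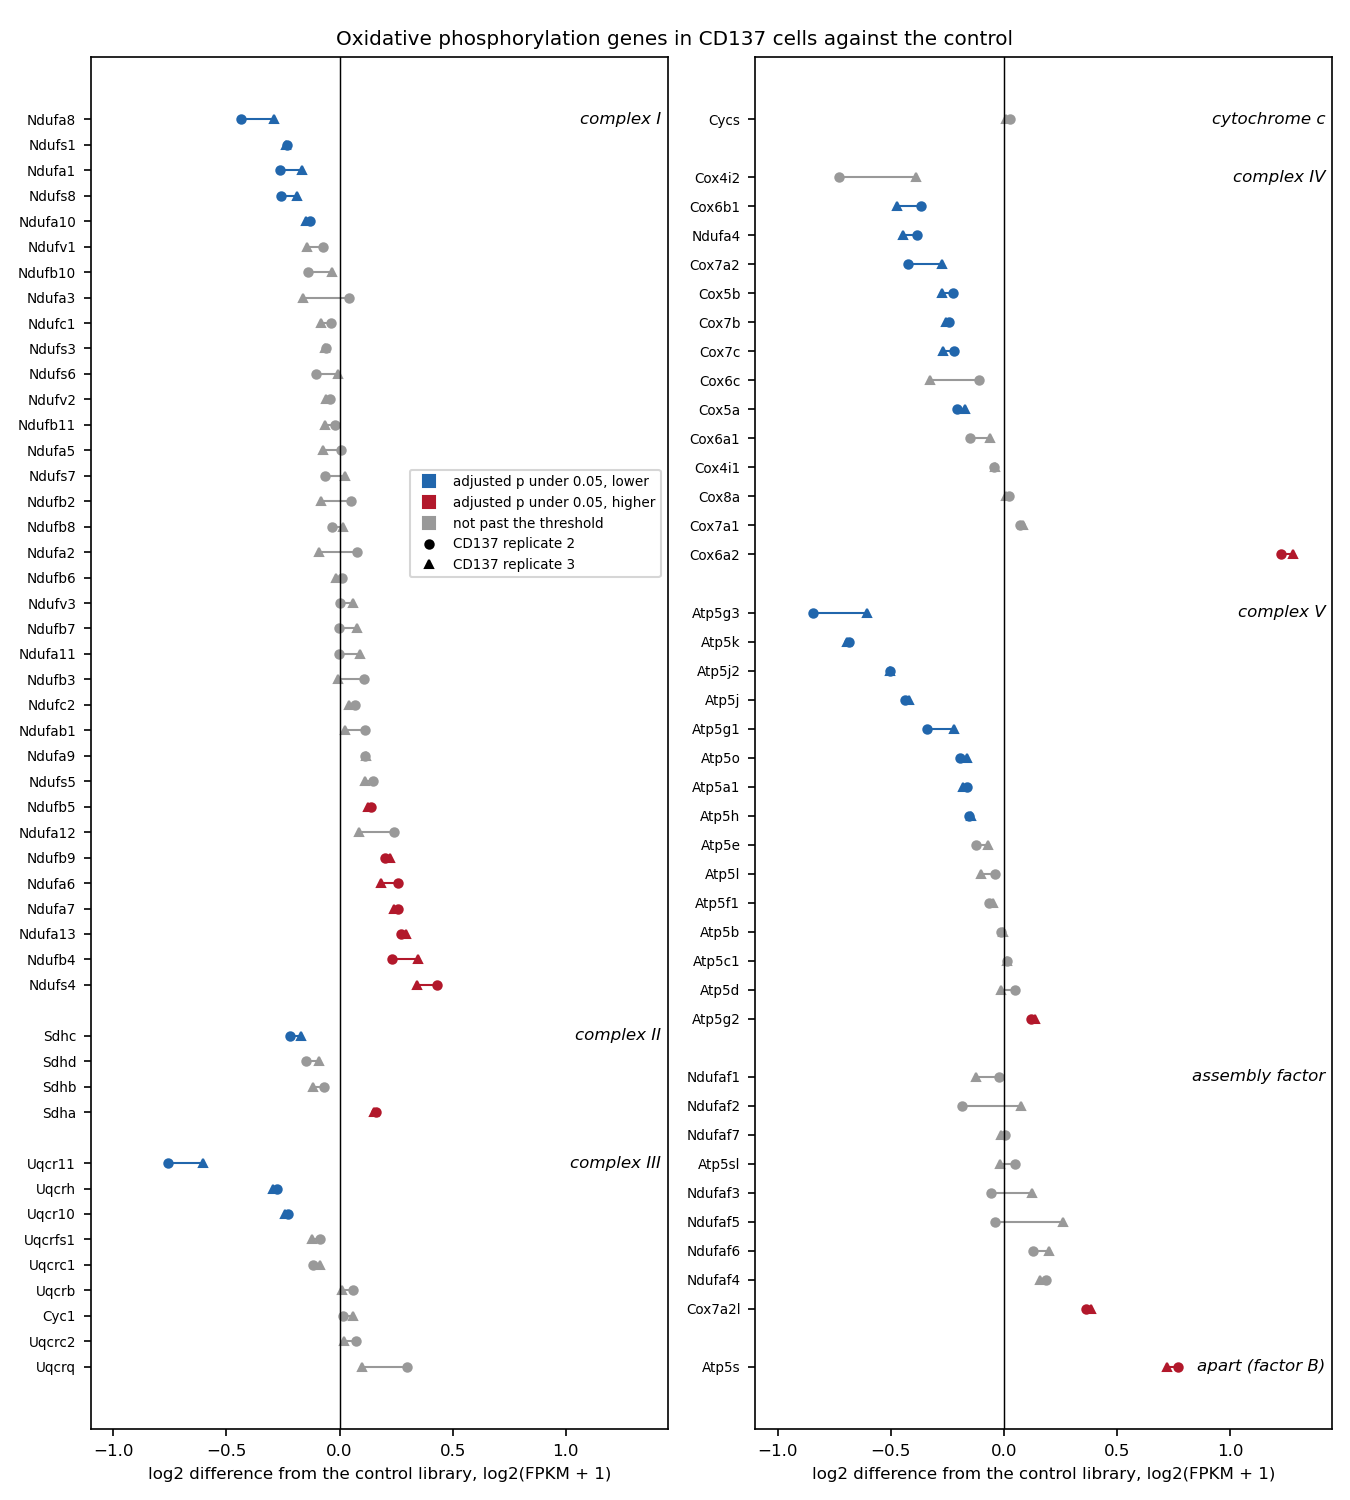
Difference of each CD137 library from the control library for the genes at 1 FPKM or more (1 complex I gene is not drawn), as log2(FPKM + 1), grouped by complex. Circles are CD137 replicate 2, triangles CD137 replicate 3, and colours give the limma call. In complex IV 7 of 14 genes tested fell (50%) and in complex V 8 of 15 (53.3%). Of all genes tested 18.2% fell, and of those at 50 FPKM or more in the control 34.4%. Cox6a2, at 1.25, stands highest.

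The complexes are set side by side here, with no test made of the difference between them; for reading the counts, 18.2% of all genes fell and 24.4% rose, or 34.4% and 25.4% of genes at 50 FPKM or more in the control. Complex IV had 7 lower (50%) and 1 higher (7.14%) of 14 tested, with a median log2 change of -0.23. Complex V had 8 lower (53.3%) and 1 higher (6.67%) of 15, with a median of -0.15. Complex III had 3 lower (33.3%) and 0 higher of 9, with a median of -0.10. Complex I, the largest, had 5 lower (13.9%) and 7 higher (19.4%) of 36, neither share above that of all genes, and a median of -0.01. Complex II had 1 lower and 1 higher of 4 (25% each), and its median was -0.11. Assembly factors had 0 lower and 1 higher of 9, with a median of 0.03. Summed FPKM in the CD137 libraries was 0.915 of the control for complex IV, 0.919 for complex V, 0.913 for complex III, 0.949 for complex II, 1.02 for complex I and 1.19 for assembly factors. Without Cox7a2l, the assembly factors summed to 108 FPKM in the control and to 108 and 116 FPKM with CD137. Levels in the control also differed by complex: the median was 230 FPKM for complex V and 203 for complex IV, 122 for complex III, 114 for complex II and 92.4 for complex I, but 13.2 for assembly factors.

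**Figure D2:**
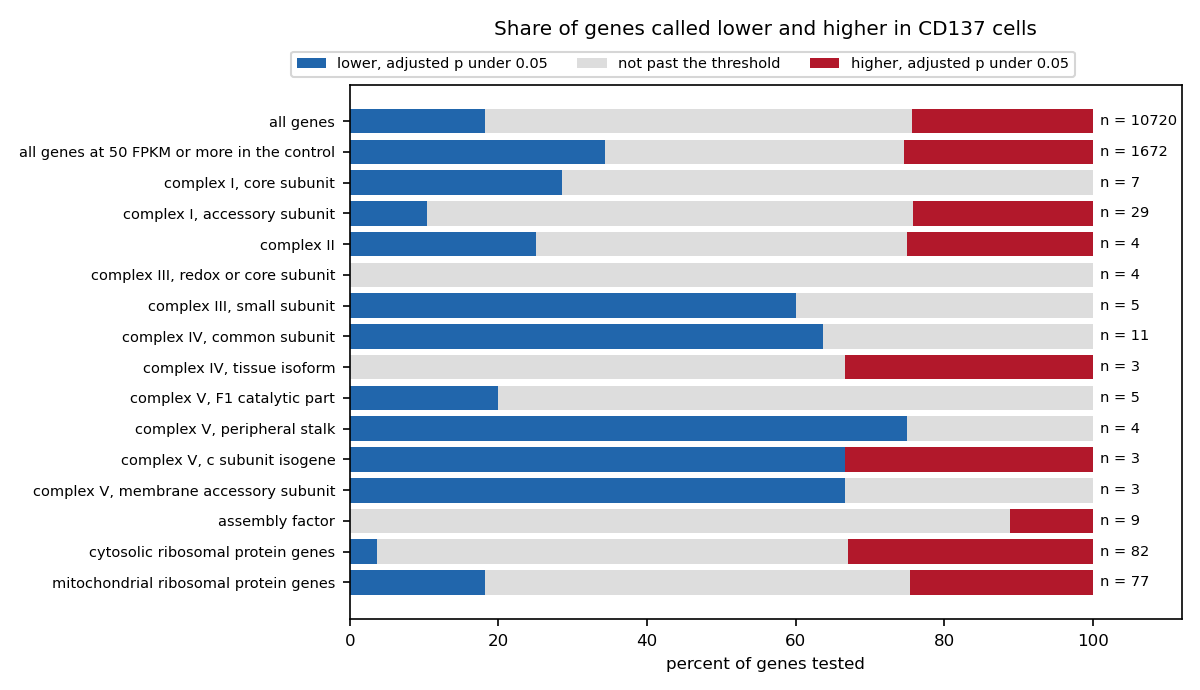
Percent of genes tested that fell, rose or did not pass the threshold in the limma fit, by complex and role of the subunit, beside all genes and the genes of both kinds of ribosome; n is the number tested. Shares lower of 60% or more were seen in small subunits of complex III, common subunits of complex IV, and stalk, c and membrane subunits of complex V. These groups are named for their values, beside 18.2% of all genes and 34.4% of those at 50 FPKM or more in the control. Several groups have 5 genes or fewer.

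The coding ends of the c subunit isogenes are shown because their reads come from related sequences. The 3 isogenes Atp5g1, Atp5g2 and Atp5g3 encode the same c subunit, which forms the rotating ring of the ATP synthase, behind different leader peptides, so their reads have to be told apart by the bases that differ. The last 228 coding bases of each, stop codon included and taken from the GENCODE annotation of GRCm38, are shown in full with capitals at positions that differ from Atp5g1.
Atp5g1 coding end: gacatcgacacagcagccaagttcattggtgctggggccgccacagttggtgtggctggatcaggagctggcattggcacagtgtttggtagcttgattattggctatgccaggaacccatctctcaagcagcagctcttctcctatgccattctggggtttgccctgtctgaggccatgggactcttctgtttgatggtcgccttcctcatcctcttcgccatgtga
Atp5g2 coding end: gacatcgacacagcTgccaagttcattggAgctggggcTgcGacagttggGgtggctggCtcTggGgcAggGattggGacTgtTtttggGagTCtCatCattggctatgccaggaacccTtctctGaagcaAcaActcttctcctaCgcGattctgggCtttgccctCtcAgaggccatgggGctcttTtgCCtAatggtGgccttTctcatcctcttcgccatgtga
Atp5g3 coding end: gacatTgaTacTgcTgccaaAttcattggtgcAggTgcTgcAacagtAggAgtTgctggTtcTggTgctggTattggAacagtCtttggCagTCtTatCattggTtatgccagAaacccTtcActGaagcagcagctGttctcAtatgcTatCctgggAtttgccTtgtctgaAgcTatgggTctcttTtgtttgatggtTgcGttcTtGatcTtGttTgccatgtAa
Over this stretch Atp5g1 and Atp5g2 were 85.1% identical, Atp5g1 and Atp5g3 79.8%, and Atp5g2 and Atp5g3 78.5%. Over the whole coding sequences, the longest run shared by any pair was 21 bases, between Atp5g1 and Atp5g2. Processed copies elsewhere in the genome were not compared, so the levels of these isogenes are uncertain to the extent that such copies take reads.

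The c subunit isogenes moved in opposite directions. Atp5g3 was at 234.05 FPKM in the control and at 129.85 and 153.72 FPKM in CD137 replicates 2 and 3. Both CD137 libraries were below the control, replicate 2 the lower of them. Its log2 change was -0.72 ± 0.10 (SE; limma adjusted p = 0.0057). Atp5g1 was at 158.85 FPKM in the control and at 125.19 and 136.26 FPKM with CD137, a log2 change of -0.28 (adjusted p = 0.0185). Atp5g2, the most abundant of them, was at 400.71, 435.37 and 440.49 FPKM, a log2 change of 0.13 ± 0.03 (adjusted p = 0.0297). The rise of Atp5g2 was small and did not pass after the libraries were rescaled to one median ratio or by TMM (0.10 and 0.09), with adjusted p between 0.0227 and 0.138 over the alternatives. As a share of the summed FPKM of the isogenes, Atp5g2 held 50.5% in the control and 63.1% and 60.3% in the CD137 libraries, and Atp5g3 held 29.5%, then 18.8% and 21%. The sum itself was 793.61 FPKM in the control and 690.41 and 730.47 FPKM with CD137.

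Around the c ring, 2 of the 3 small membrane subunits and 3 of the 4 peripheral stalk subunits of complex V fell, as did 1 of the 5 subunits of the catalytic part (20%), beside 34.4% of all genes at 50 FPKM or more in the control. Atp5k, which encodes the e subunit at the dimer interface of the ATP synthase, was at 90.30 FPKM in the control and 55.75 and 55.46 FPKM with CD137 (log2 change -0.69 ± 0.04, limma adjusted p = 0.001). Atp5j2, for the f subunit, went from 157.91 to 111.02 and 111.19 FPKM, a log2 change of -0.50 (adjusted p = 0.00141). Both genes gave nearly the same value in the CD137 libraries. The stalk genes were led by Atp5j, for coupling factor 6, at 153.05, 112.83 and 114.11 FPKM (log2 change -0.43, adjusted p = 0.00188). Atp5j shares 701 bases with Gabpa on the opposite strand, and strandedness is not given in the sources used here; Gabpa itself was at 21.43, 20.46 and 19.75 FPKM. Atp5o and Atp5h, the other stalk genes that fell, changed by -0.18 and -0.15.

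The catalytic F1 part contains the most abundant transcript of the whole set. Atp5b, the beta subunit that carries the catalytic site, was at 932.89 FPKM in the control and 925.43 and 930.98 FPKM with CD137. Its alpha partner Atp5a1 was at 429.67, 384.02 and 378.70 FPKM and fell by 0.17 on the log2 scale (limma adjusted p = 0.0134). It shares 111 bases with Haus1 on the opposite strand, itself at 32.82, 33.74 and 34.03 FPKM. Of the 5 F1 genes Atp5a1 was the one that passed the test; Atp5c1, Atp5d and Atp5e had log2 values of 0.01, 0.02 and -0.10. Atp5s, the coupling factor B gene, which is set apart because it is not a stable subunit, was at 3.66 FPKM in the control and 6.95 and 6.68 FPKM with CD137, a ratio of 1.86 (log2 change 0.75 ± 0.08, adjusted p = 0.00282). Atp5s has 7 transcripts in the table, and the ratio of its recovered reads, 1.71 from 120, 206 and 199 reads, was lower than that of its FPKM.

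The upstream sequence of members that moved in either direction is shown with promoter motifs in capitals, 250 bases before the RefSeq start in GRCm38.p6, for Uqcr11 and Atp5k, among the largest falls, and for the isogenes Atp5g2 and Atp5g3.
Uqcr11 promoter, chr10:80406822-80407071, minus strand: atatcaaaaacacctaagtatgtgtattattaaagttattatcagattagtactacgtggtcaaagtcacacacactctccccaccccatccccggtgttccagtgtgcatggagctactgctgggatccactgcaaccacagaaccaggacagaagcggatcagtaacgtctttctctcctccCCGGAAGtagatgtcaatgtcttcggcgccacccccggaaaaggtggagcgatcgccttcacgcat
Atp5k promoter, chr5:108434400-108434649, minus strand: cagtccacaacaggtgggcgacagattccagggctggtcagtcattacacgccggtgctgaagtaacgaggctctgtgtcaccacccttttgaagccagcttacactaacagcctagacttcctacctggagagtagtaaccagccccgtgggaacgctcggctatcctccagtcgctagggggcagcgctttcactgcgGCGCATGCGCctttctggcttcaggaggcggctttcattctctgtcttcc
Atp5g2 promoter, chr15:102671048-102671297, minus strand: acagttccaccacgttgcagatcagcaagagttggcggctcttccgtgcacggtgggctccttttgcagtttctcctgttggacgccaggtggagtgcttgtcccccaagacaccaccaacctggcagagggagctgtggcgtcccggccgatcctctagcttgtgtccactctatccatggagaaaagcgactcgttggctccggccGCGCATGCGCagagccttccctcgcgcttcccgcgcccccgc
Atp5g3 promoter, chr2:73911327-73911576, minus strand: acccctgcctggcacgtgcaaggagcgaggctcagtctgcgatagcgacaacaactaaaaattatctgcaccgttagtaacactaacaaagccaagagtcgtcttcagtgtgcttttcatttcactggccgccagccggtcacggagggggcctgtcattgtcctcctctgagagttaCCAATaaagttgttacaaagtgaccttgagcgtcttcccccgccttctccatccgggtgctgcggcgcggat
Capitals mark CCGGAAG, the core bound by ETS factors such as GABP, in Uqcr11, GCGCA and GCGC with any base between, the palindrome bound by NRF1, in Atp5k and Atp5g2, and CCAAT in Atp5g3. Atp5k fell and Atp5g2 did not, and both carry the NRF1 letters, from 50 and 42 bases before the start. Both strands were searched in the 75 of 91 genes matched in the RefSeq table. The NRF1 letters were found in 18.7% of them, against 7.73% of the 12575 genes with a value and a promoter entry, and in 3 of 21 genes that fell, 3 of 10 that rose and 8 of 43 that did not pass. The ETS letters were found in 17.3% of the 75 and 13.4% of all, and in 5 of 21 genes that fell, 0 of 10 that rose and 8 of 43 that did not pass. CCAAT was in 45.3% and 40.3%, the YY1 letters AAGATGGC in 2.67% and 2.14%, and TATAAA in 6.67% and 9.31%. Matches of different motifs shared bases in 0 of the promoters searched, and a match describes the letters, not a bound site.

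Complex IV, cytochrome c oxidase, held the largest change of the set, in an isoform. Cox6a2 (chr7:128205435-128206366, minus strand, mm10), the heart and skeletal muscle form of subunit 6a, was at 52.70 FPKM in the control and at 124.52 and 129.08 FPKM in CD137 replicates 2 and 3. Both CD137 libraries lay well above the control and close to each other. The rise was 2.41-fold, a log2 change of 1.25 ± 0.04 (limma adjusted p = 0.000552), larger than that of any other of the 89 genes. It rested on 614 reads in the control and 1426 and 1486 with CD137. The common form Cox6a1 was at 400.57, 360.57 and 383.38 FPKM and did not pass the test. Cox6a2 thus made up 11.6% of the summed FPKM of both forms in the control and 25.7% and 25.2% with CD137.

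The other tissue isoforms were low. Cox7a1, the muscle form of subunit 7a, was at 8.49, 8.96 and 9.07 FPKM, while its common partner Cox7a2 fell from 105.59 to 78.46 and 87.29 FPKM (log2 change -0.35, limma adjusted p = 0.0164). Cox4i2, a lung and hypoxia form of subunit 4 and the gene just inside the 1 FPKM minimum, was at 2.95, 1.38 and 2.02 FPKM from 39, 18 and 25 reads. Its adjusted p was 0.0524, and it shares 6308 bases with Bcl2l1 on the opposite strand, at 22.35, 32.48 and 30.93 FPKM. Its partner Cox4i1 was at 499.85, 485.03 and 487.03 FPKM. Just outside the minimum, Ndufa4l2, a hypoxia-inducible relative of Ndufa4, was at 0.30, 0.53 and 0.65 FPKM, and Cox6b2, the testis form, was listed at 0, 0 and 0.12 FPKM.

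**Figure D3:**
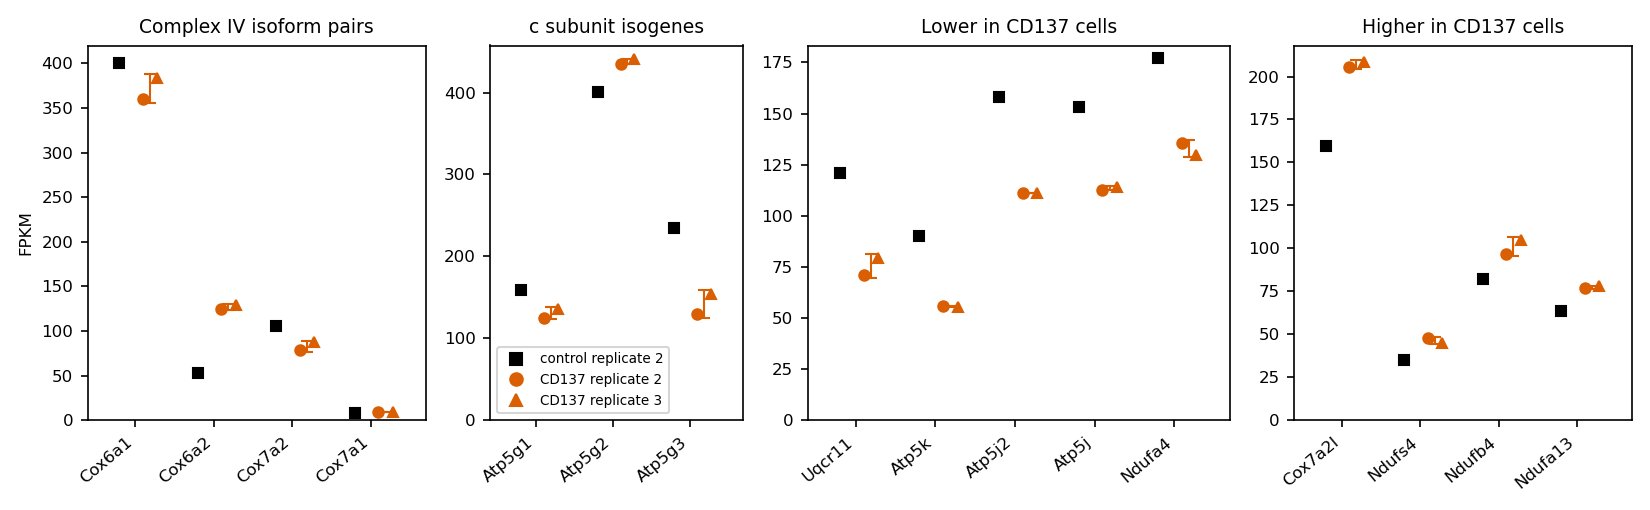
FPKM in each library for isoforms of complex IV, the c subunit isogenes, genes that fell and genes that rose. Black squares are control replicate 2, orange circles and triangles CD137 replicates 2 and 3, and the bar is their mean ± SD (n = 2); each panel's axis starts at 0, and Cox6a2 goes from 52.70 to 124.52 and 129.08 FPKM while Cox6a1 lies between 360.57 and 400.57.

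Of the 11 common complex IV subunits 7 fell and none rose (18.2% and 24.4% of all genes tested fell and rose, and 34.4% and 25.4% of those at 50 FPKM or more in the control, where all 11 lie), with a median log2 change of -0.25. Cox6b1, which bridges the dimer on the side that meets cytochrome c, was at 262.79 FPKM in the control and 203.74 and 189.00 FPKM with CD137 (log2 change -0.42, limma adjusted p = 0.00462). Ndufa4, named for complex I but a subunit of complex IV, was at 177.21, 135.64 and 129.92 FPKM (log2 change -0.41, adjusted p = 0.00269). Cox5b, Cox7b and Cox7c each fell by 0.25 and Cox5a fell by 0.19. Of the most abundant members, Cox4i1 and Cox8a changed by -0.04 and 0.02 and did not pass.

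Of the genes within 200 kb of Cox6a2, 2 of the 6 others tested rose, beside 24.4% of all genes tested. Both lie on the same side, where no other neighbour was tested. The plus-strand integrin gene Itgad overlaps its end by 70 bases and was below 1 FPKM in every library (0.09, 0.26 and 0.27). Itgax, which encodes the integrin CD11c, lies 54.8 kb away. It was at 0.72 FPKM in the control and 3.57 and 3.60 FPKM with CD137, a log2 change of 1.41 (limma adjusted p = 0.00146). Itgax reached the 1 FPKM minimum only in the CD137 libraries, so it was tested only because it was high there. Its call and the count of neighbours that rose are therefore no evidence about the region. Itgam, which encodes CD11b, lies 86.9 kb away and was at 57.45, 79.06 and 79.24 FPKM, a log2 change of 0.46 (adjusted p = 0.00193). On the other side, 9130023H24Rik, Armc5, BC017158 and Rgs10 did not pass the test, with log2 values of -0.39, 0.03, -0.00 and 0.09. Trim72, beyond Itgam, and Tgfb1i1 and Slc5a2, on the other side, were at 0.13 FPKM or less in every library and were not tested.

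**Figure D4:**
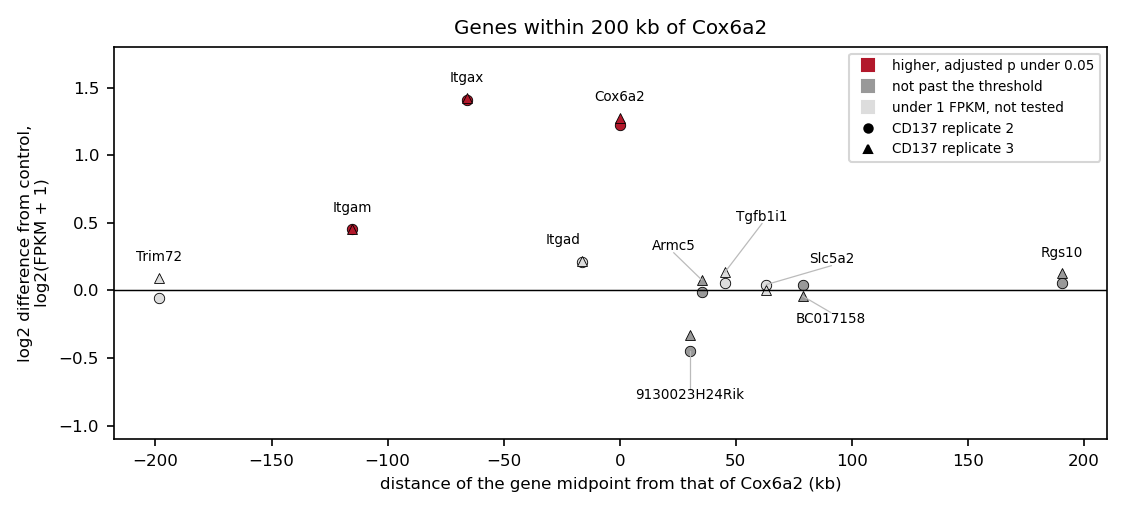
Difference of each CD137 library from the control, as log2(FPKM + 1), for genes within 200 kb of Cox6a2, by the distance between gene midpoints in kb. Cox6a2, Itgax and Itgam passed the threshold, Itgax reaching 1 FPKM only with CD137. Itgad, Tgfb1i1 and Rgs10 also lie above 0 in both libraries. The genes to the right of Cox6a2 that were tested did not pass the threshold.

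In complex III, the cytochrome bc1 complex, 3 of the 5 small subunits fell, beside 34.4% of all genes at 50 FPKM or more in the control, where all 9 complex III genes lie. Of the 4 redox and core subunits 0 passed in the limma fit, where 1, Uqcrc1, had an unadjusted p under 0.05. With TMM, Uqcrfs1 and Uqcrc1 passed, at -0.14 each. Uqcr11, for the smallest of them, was at 121.01 FPKM in the control and 71.23 and 79.37 FPKM in the CD137 libraries (log2 change -0.68 ± 0.07, limma adjusted p = 0.00282). Uqcrh, the hinge protein that helps cytochrome c dock, went from 178.12 to 146.67 and 144.85 FPKM, and Uqcr10 from 156.54 to 133.33 and 132.41 FPKM. The other two small subunit genes, Uqcrb and Uqcrq, had log2 values of 0.03 and 0.20 and did not pass. Among the redox and core genes, Cyc1, cytochrome c1, was at 133.48, 134.97 and 139.13 FPKM, Uqcrfs1, the iron-sulphur protein, at 81.44, 76.75 and 74.65, and the 4 genes had a median log2 change of -0.03. Cycs, the mobile carrier between complexes III and IV, was at 58.55, 59.75 and 58.91 FPKM.

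In complex I, 7 of the 29 accessory subunits rose (24.1%) and 3 fell (10.3%), and 2 of the 7 core subunits fell (28.6%) and 0 rose. Over all genes 18.2% fell, and 34.4% of those at 50 FPKM or more in the control, where the core genes lie. The share of accessory genes that rose is near the 24.4% of all genes. Ndufs4, an accessory subunit needed for complex I stability and mutated in inherited deficiency, was at 35.26 FPKM in the control and 47.80 and 44.99 FPKM with CD137 (log2 change 0.39, limma adjusted p = 0.00607). The other genes that rose, Ndufb4, Ndufa13, Ndufa7, Ndufa6, Ndufb9 and Ndufb5, were 1.23, 1.22, 1.19, 1.17, 1.16 and 1.1 times the control. Ndufb5 had the smallest change, and its adjusted p was 0.0328 to 0.294 over the alternatives. Ndufa13, also known as a cell death regulator, has 7 transcripts in the table and shares 375 bases with Tssk6 on the opposite strand, itself at 1.61 FPKM or less. Ndufa8, by contrast, was at 109.97, 81.09 and 89.71 FPKM and fell by 0.36 (adjusted p = 0.013). The other genes that fell were Ndufs1 and Ndufs8, core subunits that hold iron-sulphur clusters, by 0.24 and 0.22, and Ndufa1 and Ndufa10 by 0.22 and 0.14. Ndufa1 shares 17 bases with Rnf113a1 on the opposite strand, at 9.47, 7.64 and 8.06 FPKM. Among the other core genes, Ndufv1, Ndufs3, Ndufv2 and Ndufs7 had log2 values of -0.11, -0.06, -0.05 and -0.02 and did not pass. Ndufa11 has a low level, 9.73, 9.71 and 10.42 FPKM, in a table that gives it 1 transcript of 2661 bases, so its level beside the other subunits depends on that length.

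Complex II, succinate dehydrogenase, links this chain to the citric acid cycle and has no proton pump. Sdha, its flavoprotein, was at 100.64 FPKM in the control and 112.53 and 111.90 FPKM with CD137 (log2 change 0.16, limma adjusted p = 0.026), and Sdhc, a membrane anchor, fell from 164.91 to 141.64 and 146.56 FPKM (adjusted p = 0.0174). Sdhb and Sdhd had log2 values of -0.09 and -0.12 and did not pass.

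Of the 9 assembly factors among the chosen genes, 1 passed the test. The 8 for complex I had values between 10.31 and 17.08 FPKM in the control and log2 values from -0.07 to 0.17; 0 passed in the limma fit, and 1, Ndufaf4, had an unadjusted p under 0.05. Cox7a2l, a factor that joins complexes III and IV into supercomplexes, was at 159.67 FPKM in the control and 205.31 and 208.66 FPKM in the CD137 libraries (log2 change 0.37 ± 0.04, limma adjusted p = 0.00223). Of 45 other assembly factors with values at 1 FPKM or more, 7 fell (15.6%) and 8 rose (17.8%), with a median of 0.07. Over all genes 18.2% fell and 24.4% rose. Tmem126a, a complex I assembly factor, was at 45.14, 63.66 and 65.23 FPKM, and Surf1 and Cox16, which act on complex IV, were at 1.32 and 1.31 times the control (adjusted p = 0.00485 and 0.00417).

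Genes that feed, regulate or supply this system were followed in lists. Their shares are to be read against 18.2% lower and 24.4% higher over all genes. Among genes at 50 FPKM or more in the control, the shares were 34.4% and 25.4%. The median control level was 58.2 FPKM for citric acid cycle genes and 72.7 for import and carrier genes, against 14.5 for all genes tested. Of 21 citric acid cycle genes, 7 fell (33.3%) and 3 rose (14.3%). Mdh2 went from 321.59 to 266.55 and 273.42 FPKM, Idh3a to 0.79 of the control and Fh1 to 0.753. Among 29 import and carrier genes, 15 fell (51.7%) and 3 rose (10.3%), with a median of -0.13; Phb, a prohibitin of the inner membrane, went from 59.69 to 34.39 and 36.56 FPKM (log2 change -0.74), and Timm8a1 and Phb2 were at 0.693 and 0.779 of the control. Of 19 genes for mitochondrial DNA expression, 5 fell (26.3%) and 1 rose (5.26%), among the former Supv3l1, Polrmt, the mitochondrial RNA polymerase, and Peo1, the helicase, at 0.728, 0.754 and 0.775 of the control. Of 11 regulators, including Nrf1, Gabpa and Esrra, 0 passed in the limma fit; 3 had an unadjusted p under 0.05, Yy1, Ppard and Creb1, with adjusted p of 0.0538, 0.0575 and 0.0815. For comparison, cytosolic ribosomal protein genes had 3 lower (3.66%) and 27 higher (32.9%) of 82 tested and a median of 0.08. Mitochondrial ribosomal protein genes had 14 lower (18.2%) and 19 higher (24.7%) of 77, near the shares of all genes.

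The authors' deposited table also compares libraries in pairs by a Poisson test. In it the adjusted score was under 0.05 for 46 of 90 genes between the control and CD137 replicate 2 and for 42 of 91 between the control and CD137 replicate 3, beside 40.2% of all genes in each. Those comparisons share the control. Between the CD137 libraries it was under 0.05 for 3 of 91, beside 1.43% of all genes. These were Atp5g3, with 0.000102, Uqcrq, with 0.000965, and Cox6c, with 0.0408.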

How the data were processed

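Per the labels' protocols, oligo-dT beads were used to prepare the libraries. The authors deposited FPKM per gene and library, rounded to 0.01; the submitters' processing notes list mm10 with HISAT2, Bowtie2 and RSEM, without versions or roles. Strandedness is not given in the sources used here. Each deposited p-value and adjusted score of the authors comes from a Poisson comparison of a library pair, per the file headers.

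Genes, complexes and lists were chosen with earlier results of these data known, including that a fit of all genes called none. Genes were named by rule: Tnfrsf9; every gene past the threshold; per complex the 3 highest and the 2 with the largest change; isoforms with their partners; the c subunit isogenes; the 3 smallest p per list; and genes just inside and outside 1 FPKM. Itgad, Itgax and other neighbours of Cox6a2, genes overlapping a named gene, Fcgr1, Lyz2, Nrf1, Gabpa, Esrra and further members given as examples were added after values were seen. The values of 1 complex I gene are not reported here; it is counted in the totals.

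limma 3.58.1 in R 4.3.3 was run on log2(FPKM + 1), and TMM factors were computed directly. The code was also run on simulated data that gave control and CD137 libraries the same spread. That run cannot show how the test behaves where control cultures differ more. Whole reads were solved from FPKM and the deposited p-values, uniquely for 93.9% of genes at 1 FPKM or more; limma-voom on these was added after seeing the data. Leaving out either CD137 library gives 1 against 1, a value with no test. Sequences are from RefSeq (GRCm38.p6) and GENCODE.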

Additional observations from a re-analysis of the deposited data

How the results depend on the processing

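The number of genes that passed depended most on the filter and the variance model. With no filter on low values 0 fell and 0 rose, and without a mean-variance trend 14 fell and 6 rose; 34 genes had an unadjusted p under 0.05 in each of these fits. With a pseudocount of 0.1, a 5 FPKM minimum, a common median ratio, TMM and limma-voom on recovered reads (added after seeing the data), 24 to 33 fell and 10 to 13 rose. The 5 FPKM minimum left 88 genes to test and limma-voom 83, against 89 in the others. All 36 genes kept their direction in every setting in which they had a value, but every setting reuses the same libraries. For each of these genes both CD137 libraries lay on one side of the control. Leaving out a CD137 library, or changing the filter or the variance model, could therefore not alter the direction.

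The median log2 change of complex I was -0.04 with a common median ratio, TMM and limma-voom, and 0.00 when either CD137 library was left out. For complex II it was -0.14 in these 3 settings, the last over 2 of its 4 genes (limma-voom covers only genes with recovered reads, which are 35 of 36 in complex I, 9 of 9 in complex III and 12 of 15 in complex V). For complex III it was -0.13, -0.14 and -0.13 there, and -0.09 to -0.08 with 1 library left out. It was -0.27 for complex IV with TMM, and -0.18, -0.18 and -0.16 for complex V with a common median ratio, TMM and limma-voom. Assembly factors were at 0.01 to 0.12 with 1 library left out, the higher without CD137 replicate 2, and 0.03 with both. The cause of these shifts was not tested. No paired analysis was possible because the libraries analysed share only 1 replicate number between the groups. Depth limits the lowest genes most: Cox4i2 rests on 39, 18 and 25 reads.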
